A study of Mus musculus with 2 samples.

Results

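The genes described here are those of the cytotoxic granule, the granzymes A, B, C, D, E, F, G, K and M and perforin, in mouse lymphocytes polarized in culture. They were taken as the probes annotated to 1 of these gene symbols alone, which gave all 10 genes on 11 probes, out of 17501 genes and 36547 probes, of which 26926 had 1 gene. Gzme had 2 probes and each other gene had 1. The samples were 2 two-colour arrays. On one, RNA of Th17-polarized lymphocytes was labelled with Cy5 and RNA of Th0 cells with Cy3, and on the other Th1-polarized lymphocytes took the place of the Th17-polarized ones. All populations came from a TRP-1 mouse, a T cell receptor transgenic strain whose CD4 T cells recognise a protein of pigment cells and melanoma. Th0 is the usual name for activated cells cultured without the cytokines that direct a lineage. The sources used here give neither the age of the animals, the culture cytokines nor the purity of the cells, and do not say if the arrays shared 1 preparation of Th0 RNA.

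Cytotoxic lymphocytes kill by releasing granules. Perforin opens the membrane of the target cell, and granzymes, a family of serine proteases, enter through it and cleave proteins that lead to cell death. Granzymes are best known from CD8 T cells and NK cells, but activated CD4 T cells can make them too, and CD4 cells of this strain have been described as able to kill melanoma cells.

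Each probe had 1 value per array, taken to be the log2 ratio of the 2 channels. The median over all probes was −0.05 on the Th17 and Th0 array and −0.11 on the Th1 and Th0 array. There was 1 array per comparison and no dye swap, so no difference was tested and the number of arrays limits the precision. The spread between different probes of the same gene was used as a repeat measurement. Its pooled SD over 5871 genes with 2 to 19 probes was 0.50 on the Th17 and Th0 array, 0.52 on the Th1 and Th0 array and 0.52 for the difference between the arrays. This spread measures how probes differ and not how cultures differ. Genes with more probes, such as Tbp with 79, were left out of it. The ratios hold no absolute level, so whether the cells expressed T cell markers at all could not be checked.

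The direction of the deposited ratio is not settled. The titles name the polarized cells first, and read that way a positive value means more RNA in the polarized cells than in Th0 cells. Lineage-defining genes, which cells polarized to that lineage would be thought to express more, were found on the negative side. The Th17 cytokine gene Il17a lay at −5.37 on the Th17 and Th0 array, and the Th1 cytokine gene Ifng at −2.02 on the Th1 and Th0 array. That is opposite to the titled reading. With the sign turned, a positive value would mean less RNA in the polarized cells. Values are therefore given as deposited. What does not depend on the choice is which genes lay on the same side of an array and which lay opposite, and those statements are made here.

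On the Th17 and Th0 array the cytotoxic granule genes and the Th17 cytokine genes lay on opposite sides. Of the 11 granzyme and perforin probes, 10 were at least 2-fold apart on the positive side and 0 on the negative side. Over all probes with 1 gene, 2.94% lay at least 2-fold on the positive side of this array and 5.72% on the negative side. The member probes had a median of 3.24 (9.45-fold), beside −0.02 over all probes with 1 gene. Il17a lay at −5.37, Il17f at −2.38, Il21 at −4.17, Il22 at −5.79, the chemokine gene Ccl20 at −6.48 and the receptor gene Il23r at −1.88. Whichever of the Th17 and Th0 populations had more RNA of these 6 genes therefore had less RNA of granzymes A to G and K and of perforin.

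On the Th1 and Th0 array the same arrangement held against the Th1 cytokine gene, with smaller ratios for the granzymes. Here 8 of 11 member probes were at least 2-fold on the positive side and 0 on the negative side, against 3.44% of all probes with 1 gene on the positive side and 7.02% on the negative side. Their median was 1.83 (3.57-fold), beside −0.06 over all probes with 1 gene. Interferon gamma, encoded by Ifng, had a ratio of −2.02, the inhibitory cytokine gene Il10 one of −2.35 and the growth factor gene Csf2 one of −2.97. Whichever of the Th1 and Th0 populations had more RNA of these 3 genes had less RNA of perforin and of granzymes C to G and K. Tbx21, the master regulator of Th1 cells, lay at −1.25 on this array. Il22 lay at −2.53 and Il21 at −1.23, Il23r at −1.02 and Ccl20 at −0.67, while Il17a and Il17f lay at 0.29 and 0.06. On both arrays together, 8 of 11 member probes were at least 2-fold positive, where 1.29% of all probes with 1 gene were. These were all 6 probes of granzymes C to G, which are near copies of each other, and 2 of the 5 other member probes.

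**Figure D1:**
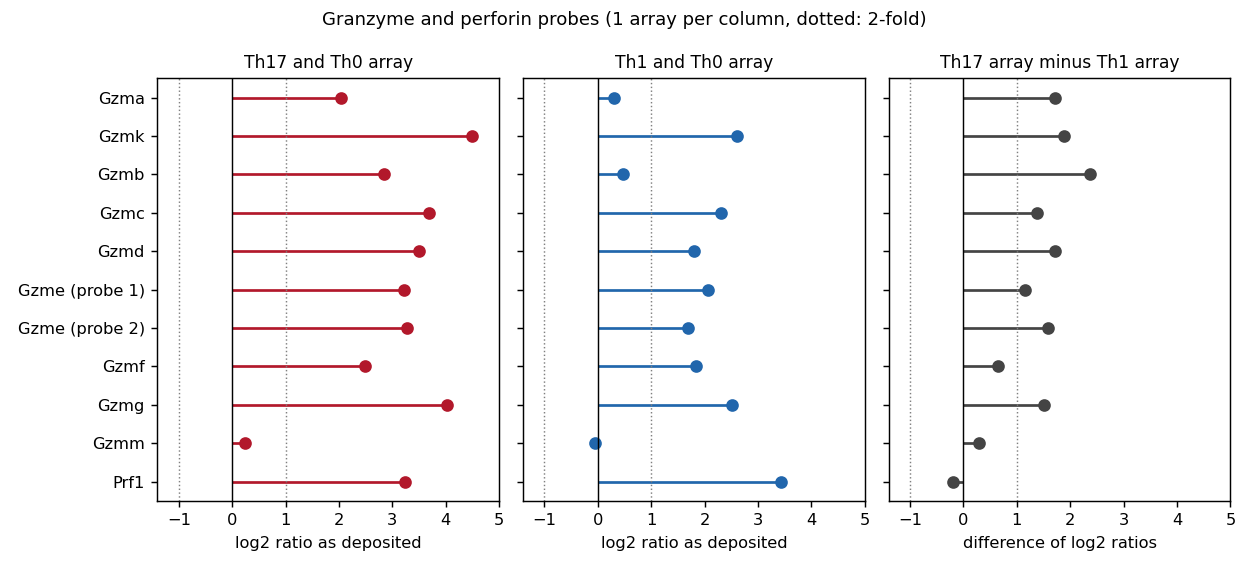
Value of each granzyme and perforin probe, with the Th17 and Th0 array on the left, the Th1 and Th0 array in the middle (both log2 ratio as deposited) and their difference on the right. Points are single probes on single arrays, lines run to 0 and dotted lines mark 2-fold. Gzmk leads on the left at 4.50 and Prf1 in the middle at 3.43, and Gzmm stays near 0 in all panels.

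Perforin was the member furthest on the positive side of the Th1 and Th0 array and one of the middle members of the other. Prf1, which encodes the pore-forming protein itself, lay at 3.24 (9.45-fold) on the Th17 and Th0 array and at 3.43 (10.8-fold) on the Th1 and Th0 array. Its rank from the top among the 26926 probes with 1 gene was 36 on the first and 7 on the second. The 2 values differed by −0.19, less than the spread between probes of a gene. Perforin was the 1 member gene whose difference between the arrays lay below 0, against 10 of 11 member probes above it.

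Granzymes A and K are neighbours on chromosome 13 and both are tryptase-like, cutting after basic residues. Gzmk lay at 4.50 (22.6-fold) on the Th17 and Th0 array, rank 5 of all probes with 1 gene, and at 2.61 (6.11-fold) on the Th1 and Th0 array, rank 56. Gzma lay at 2.03 (4.09-fold) on the Th17 and Th0 array and at 0.31 (1.24-fold) on the Th1 and Th0 array, where it did not reach 2-fold. With that array centred on its most repeated value, Gzma was 2.23-fold apart there. Gzmk thus lay further out than its neighbour by 2.47 on the Th17 and Th0 array and by 2.30 on the Th1 and Th0 array. Their differences between the arrays were close, 1.89 for Gzmk and 1.72 for Gzma. Of the 8 nearest other protein-coding genes around the pair, 5 were measured, and the 2 next to it, 1 on each side, also lay on the positive side of the Th17 and Th0 array. These were Gpx8, which encodes a peroxidase of the endoplasmic reticulum, at 2.74, and Esm1, which encodes a secreted proteoglycan of endothelial cells, at 2.82. On the Th1 and Th0 array Gpx8 lay at 1.21 and Esm1 at −0.71.

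Granzyme B, the granzyme that cuts after aspartate and activates caspases, was the member with the widest difference between the arrays. Gzmb lay at 2.83 (7.13-fold) on the Th17 and Th0 array, rank 64 of the probes with 1 gene, and at 0.47 (1.39-fold) on the Th1 and Th0 array, rank 3852. The difference was 2.36 (5.14-fold). With the Th1 and Th0 array centred on its most repeated value, Gzmb was 2.50-fold apart there and passed 2-fold. The Gzmb and Prf1 genes, whose products act together, lay within 0.41 of each other on the Th17 and Th0 array, while Prf1 lay 2.96 further out on the Th1 and Th0 array.

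Granzymes C to G were positive on both arrays in all 6 of their probes. From lowest to highest these probes spanned 1.54 on the Th17 and Th0 array and 0.83 on the Th1 and Th0 array. These genes are known from strongly activated mouse lymphocytes. On the Th17 and Th0 array Gzmg lay at 4.03 (16.3-fold), Gzmc at 3.69 (12.9-fold), Gzmd at 3.51 (11.4-fold) and Gzmf at 2.49 (5.62-fold). The 2 Gzme probes lay at 3.22 and 3.27 there. On the Th1 and Th0 array Gzmg lay at 2.51 (5.70-fold), Gzmc at 2.31 (4.97-fold), Gzmf at 1.83 (3.57-fold) and Gzmd at 1.80 (3.47-fold), and the Gzme probes at 2.07 and 1.68. The SD over these 6 probes was 0.52 on the Th17 and Th0 array and 0.32 on the Th1 and Th0 array, so these genes spread about as widely as, or less than, different probes of 1 gene do. Because the 5 genes are near copies, a probe of one may also have bound RNA of another, so the 6 probes are not 6 separate measurements.

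Granzyme M, a protease that cuts after methionine and leucine and is best known from NK cells, stayed near the middle of both arrays. Gzmm lay at 0.24 (1.18-fold) on the Th17 and Th0 array and at −0.06 (1.04-fold) on the Th1 and Th0 array. Among probes with 1 gene, 75.9% lay below it on the first and 50.1% on the second. Of the 8 nearest protein-coding genes around Gzmm 7 were measured, and 0 of them were 2-fold apart on either array. The same held for the 7 measured neighbours of Prf1.

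**Figure D2:**
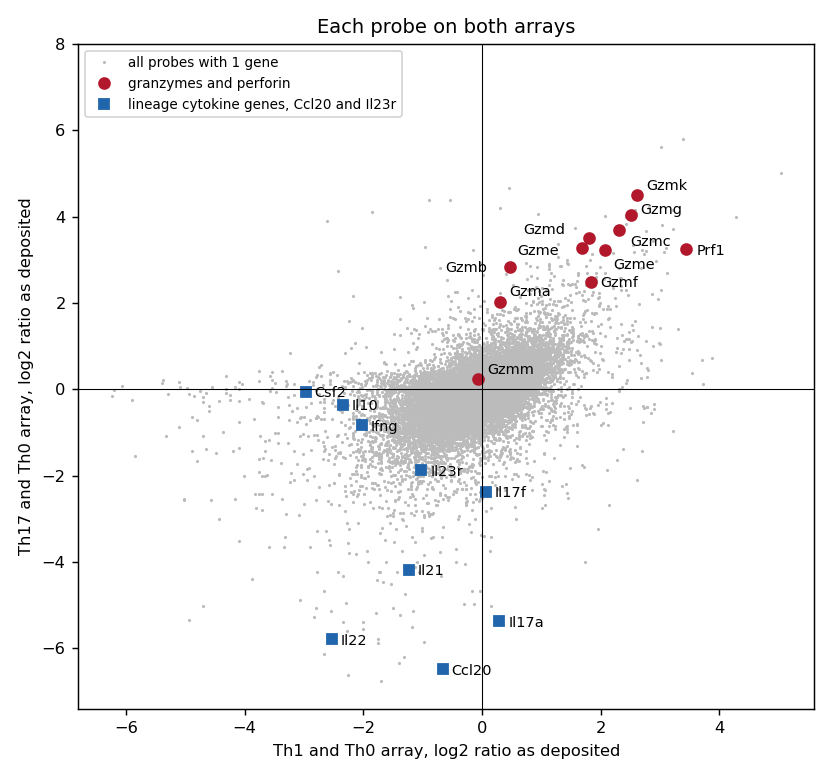
Log2 ratio as deposited of each probe with 1 gene on the Th1 and Th0 array (horizontal) and on the Th17 and Th0 array (vertical), with granzymes and perforin as red circles and lineage genes as blue squares. All member probes but that of Gzmm lie above 2 on the vertical axis, while Il17a, Il22 and Ccl20 lie below −5.

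The granzyme genes B to G lie side by side on chromosome 14, with Gzmn, a granzyme gene known from testis, among them and the mast cell protease genes on one flank. Running along the chromosome, the order is Mcpt1, Mcpt2, Mcpt9, Mcpt4, Mcpt8, Ctsg, Gzme, Gzmd, Gzmg, Gzmn, Gzmf, Gzmc and Gzmb. All 7 granzyme genes of the row were at least 2-fold positive on the Th17 and Th0 array, with values from 2.49 to 4.03. On the Th1 and Th0 array 6 of 7 were, the exception, with the values as deposited, being Gzmb at the end of the row. Over all genes, 2.9% were at least 2-fold positive on the first array and 3.27% on the second. Of the 7 genes, 5 are the near copies C to G, whose probes may not be separate measurements. Gzmn itself lay at 3.68 on the Th17 and Th0 array and at 2.77 on the Th1 and Th0 array.

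The flanking protease genes behaved differently from the granzymes in the difference between the arrays. The difference lay above 0 for all 7 granzyme genes, from 0.66 to 2.36. It lay below 0 for all 6 of Mcpt1, Mcpt2, Mcpt9, Mcpt4, Mcpt8 and Ctsg, from −3.09 to −0.41. The median over all genes was 0.04. At least 2-fold were 5 of the 7 on the positive side and 5 of the 6 on the negative side. Of all probes with 1 gene, 4.63% lay there on the positive side and 3.76% on the negative side. Mcpt2, a mast cell protease gene, lay at −0.38 on the Th17 and Th0 array and 2.71 on the Th1 and Th0 array, although its Th1 and Th0 ratio could be matched by a weaker channel of 5 signal units. Mcpt8, a protease gene of basophils, lay at 1.04 on the Th17 and Th0 array and 3.0 on the Th1 and Th0 array. Ctsg, the gene of cathepsin G of neutrophils and mast cells, lay at 2.70 on the Th17 and Th0 array and 3.12 on the Th1 and Th0 array, and sits next to Gzme. On the other flank, beyond Gzmb, Atp12a lay at −0.07 on the Th17 and Th0 array and −0.18 on the Th1 and Th0 array, and Rnf17 at −0.84 and −0.83. Next to them Cenpj, a centriole gene, was at least 2-fold positive on both, at 1.45 and 1.10, and further out Pspc1 lay at −0.61 on the Th17 and Th0 array and 1.02 on the Th1 and Th0 array.

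**Figure D3:**
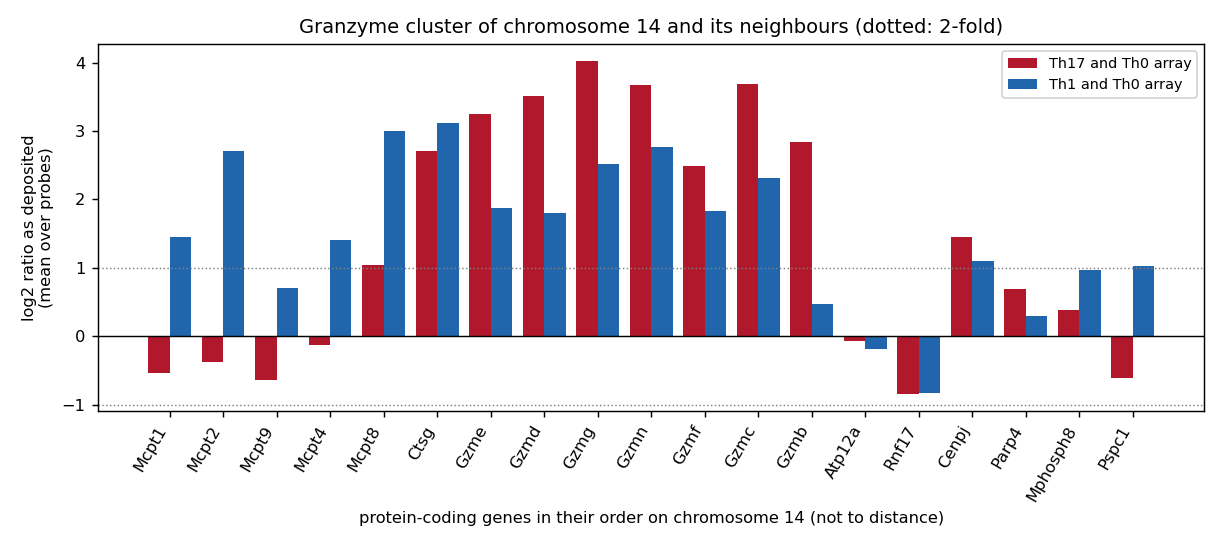
Log2 ratio as deposited (mean over the probes of a gene) for protein-coding genes in their order on chromosome 14, with the Th17 and Th0 array in red and the Th1 and Th0 array in blue. From Gzme to Gzmb every red bar is taller than its blue partner, while from Mcpt1 to Ctsg every blue bar is taller.

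The sequences before the start of these genes show how alike the copies are and that Gzmb and Gzmn depart from them. Each promoter window from RefSeq (build GRCm38.p6) holds 250 bases before and 50 bases after the gene's start, 300 in all. Over the 10 pairs of granzymes C to G the aligned windows were 73.5% to 93.4% identical, with a median of 80.4%. Gzmd and Gzme were the most alike pair at 93.4%. Gzmb matched granzymes C to G at 43.5% to 47.8%, and granzymes A, K and perforin matched the granzymes of chromosome 14 at 40.3% to 50.0%. Gzmn, at 3.68 on the Th17 and Th0 array and 2.77 on the Th1 and Th0 array, matched granzymes C to G at 47.2% to 50.0%. Capitals mark matches to 4 motifs, searched on both strands, of factor families known to act on granzyme or perforin genes. These were TGTGGT for Runx, TGANTCA for AP-1, AGGTGT for T-box factors and TTCNNNGAA for STAT factors. Windows of Gzmb, of 4 of the near copies C to G and of Prf1 are shown, from 5′ to 3′.

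Gzmb (chr14:56262285-56262584, minus strand): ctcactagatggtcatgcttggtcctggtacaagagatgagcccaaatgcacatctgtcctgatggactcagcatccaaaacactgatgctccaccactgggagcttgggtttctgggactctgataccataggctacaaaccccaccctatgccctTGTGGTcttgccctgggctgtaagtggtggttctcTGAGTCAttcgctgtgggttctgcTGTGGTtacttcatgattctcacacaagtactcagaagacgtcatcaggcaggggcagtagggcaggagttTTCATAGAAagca
Gzmc (chr14:56234608-56234907, minus strand): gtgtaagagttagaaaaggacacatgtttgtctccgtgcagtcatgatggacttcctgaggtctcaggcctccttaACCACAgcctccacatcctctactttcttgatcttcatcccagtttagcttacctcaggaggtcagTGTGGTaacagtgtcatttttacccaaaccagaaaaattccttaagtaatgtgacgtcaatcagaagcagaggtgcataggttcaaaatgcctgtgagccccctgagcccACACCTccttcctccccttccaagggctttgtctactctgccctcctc
Gzmd (chr14:56132544-56132843, minus strand): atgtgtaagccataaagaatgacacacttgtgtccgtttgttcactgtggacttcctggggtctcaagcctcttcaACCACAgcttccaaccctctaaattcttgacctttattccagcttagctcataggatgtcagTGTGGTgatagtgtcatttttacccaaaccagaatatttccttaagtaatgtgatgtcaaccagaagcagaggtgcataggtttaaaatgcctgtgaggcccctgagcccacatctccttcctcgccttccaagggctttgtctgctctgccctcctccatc
Gzme (chr14:56120576-56120875, minus strand): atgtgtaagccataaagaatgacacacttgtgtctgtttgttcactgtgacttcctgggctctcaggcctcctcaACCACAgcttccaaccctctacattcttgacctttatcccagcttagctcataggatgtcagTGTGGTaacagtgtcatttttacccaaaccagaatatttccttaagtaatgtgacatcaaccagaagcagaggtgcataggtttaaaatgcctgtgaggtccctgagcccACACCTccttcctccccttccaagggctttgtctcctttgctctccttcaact
Gzmg (chr14:56159530-56159829, minus strand): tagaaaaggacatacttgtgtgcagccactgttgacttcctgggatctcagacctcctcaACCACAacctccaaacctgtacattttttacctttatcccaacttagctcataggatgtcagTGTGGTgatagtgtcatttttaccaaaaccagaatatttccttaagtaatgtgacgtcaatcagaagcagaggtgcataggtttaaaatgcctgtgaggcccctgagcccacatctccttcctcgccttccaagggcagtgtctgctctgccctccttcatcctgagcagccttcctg
Prf1 (chr10:61297586-61297885, plus strand): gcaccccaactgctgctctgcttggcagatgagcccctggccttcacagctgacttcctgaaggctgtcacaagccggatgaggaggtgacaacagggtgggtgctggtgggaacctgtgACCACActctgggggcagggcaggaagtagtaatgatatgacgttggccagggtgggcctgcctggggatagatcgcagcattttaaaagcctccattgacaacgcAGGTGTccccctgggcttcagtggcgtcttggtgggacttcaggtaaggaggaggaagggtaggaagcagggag

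All 5 of granzymes C to G held a pair of Runx matches, the first reading ACCACA on the strand shown and the second TGTGGT. The first bases of the matches were 62 bases apart in Gzmd, Gzme, Gzmf and Gzmg and 66 bases apart in Gzmc. At least 2 Runx matches were found in 1.81% of the 32851 promoter windows and at least 1 in 16.8%, but the windows of the copies are not independent of each other. Gzmb held 2 Runx matches as well, both reading TGTGGT, beginning 93 and 34 bases before the start. Between them it held an AP-1 match, TGAGTCA, beginning 58 bases before the start, which none of the other member windows held and 7.81% of all windows did. It also held a STAT match after the start. Prf1 held 1 Runx and 1 T-box match, and Gzma 1 of each. T-box matches were also found in Gzmk, Gzmc and Gzme, and a Runx and a STAT match in a Gzmm window. T-box matches were found in 13.7% of all windows and STAT matches in 8.3%. No motif overlapped another in the windows shown. The Gzmn window held 0 matches to these motifs. A match is a run of letters and not a shown site of binding, and a link between windows and ratios was not tested.

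Serpins that inhibit granule proteases lay on the same side as the granzymes. Of 5 measured genes of this list, 3 were at least 2-fold positive on each array and 0 negative, where 2.9% of genes were positive on the Th17 and Th0 array and 3.27% on the Th1 and Th0 array. On the negative side the shares of all genes were 5.52% and 6.92%. Serpinb9, whose product blocks granzyme B and protects the cell that makes it, lay at 3.83 on the Th17 and Th0 array and 2.42 on the Th1 and Th0 array. Its relatives Serpinb9b and Serpinb6b lay at 5.61 and 4.08 on the first and at 3.01 and 2.59 on the second, and the ratio of Serpinb6b on the Th17 and Th0 array could be matched by a weaker channel of 5 signal units. Serpinb6a and Serpinb1a, which are more widely expressed, lay at 0.61 and 0.40 on the Th17 and Th0 array and at 0.47 and 0.77 on the Th1 and Th0 array.

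Most genes of the machinery that packs and releases granules stayed under 2-fold. Of 14 genes measured, 2 were at least 2-fold positive and 1 negative on the Th17 and Th0 array, and 1 positive and 2 negative on the Th1 and Th0 array. Over all genes the positive shares were 2.9% and 3.27% and the negative shares 5.52% and 6.92%. The medians were 0.04 and 0.36, beside −0.03 and −0.08 over all genes, and 8 and 11 of the 14 lay above 0. Nkg7, a membrane protein of cytotoxic granules, lay at 2.39 on the Th17 and Th0 array and 0.68 on the Th1 and Th0 array. Rab27a, a GTPase needed for granule release, lay at 1.05 and 1.21, and Calr, the gene of the chaperone calreticulin, at −1.18 and −1.03. Lyst, which controls granule size, lay at −0.37 on the Th17 and Th0 array and −1.70 on the Th1 and Th0 array. The 2 probes of Lyst on the Th1 and Th0 array spread with an SD of 0.98. Srgn, the gene of the proteoglycan that holds granzymes in the granule, did not reach 2-fold on either array.

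Proteases that mature granzymes were split between the arrays. Ctsc, whose product removes the propeptide of granzymes, lay at −0.38 on the Th17 and Th0 array and 0.70 on the Th1 and Th0 array. Ctsh, a cathepsin with a similar activity, lay at −1.09 and 1.37. M6pr and Igf2r, the mannose 6-phosphate receptors that sort or take up granzymes, lay at 0.46 and −0.08 on the Th17 and Th0 array and at 0.76 and −0.07 on the Th1 and Th0 array. The 4 genes measured had a median of −0.23 on the first and 0.73 on the second.

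Ligands of death receptors serve the other route by which lymphocytes kill. Of 5 genes in this list, which also held the adhesion receptor gene Crtam, 1 was at least 2-fold positive and 1 negative on the Th17 and Th0 array. Over all genes 2.9% were positive and 5.52% negative on that array, and 3.27% and 6.92% on the Th1 and Th0 array. On the Th17 and Th0 array Fasl lay at 1.49, on the side of the granzymes, while Lta, the gene of lymphotoxin alpha, lay at −1.82 and Tnf at −0.45. On the Th1 and Th0 array 0 of the 5 genes were 2-fold apart, with Fasl at −0.58, Lta at −0.97 and Tnf at −0.49. Tnfsf10, the gene of TRAIL, lay at −0.73 there and Crtam at 0.25.

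Among regulators of the cytotoxic programme, 8 of 19 measured genes were at least 2-fold positive and 0 negative on the Th17 and Th0 array. Over all genes 2.9% were positive and 5.52% negative there, and the median of the list was 0.74. The 8 included Gata3, the master regulator of Th2 cells, at 1.28, and Prdm1 at 1.21, whose 2 probes lay at 0.39 and 2.02. On the Th1 and Th0 array 1 was positive and 4 were negative, where 3.27% of all genes were positive and 6.92% negative, with a median of 0.00. The positive one was Eomes, whose probes lay at 0.29 and 4.29. Hopx, a cofactor gene of effector lymphocytes, lay at 3.31 on the Th17 and Th0 array and −0.97 on the Th1 and Th0 array. Il2rb and Nfil3 lay on the positive side of both, at 1.65 and 1.62 on the Th17 and Th0 array and at 0.91 and 0.98 on the Th1 and Th0 array. Tbx21, a T-box factor that acts on granzyme B and perforin genes, lay at 0.87 on the Th17 and Th0 array and −1.25 on the Th1 and Th0 array. Eomes, the other T-box factor of cytotoxic cells, averaged 2.33 and 2.29, but its 2 probes spread with SDs of 2.34 and 2.83, so these means rest on probes that disagree. The interleukin 18 receptor genes Il18r1 and Il18rap lay at −0.57 and 0.58 on the Th17 and Th0 array and at −2.03 and −1.24 on the Th1 and Th0 array.

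Genes of proteins that granzymes cut stayed mostly under 2-fold. Of 12 measured, 1 was positive on the Th17 and Th0 array and 2 on the Th1 and Th0 array, with 0 negative on either. Over all genes the positive shares were 2.9% and 3.27% and the negative shares 5.52% and 6.92%. Lmna, the gene of the nuclear lamins A and C, lay at 1.31 and 1.34 over 4 probes, and Apex1, a DNA repair enzyme gene, at −0.05 on the Th17 and Th0 array and 1.12 on the Th1 and Th0 array. Bid, the death-promoting target of granzyme B, lay at −0.08 and −0.52.

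**Figure D4:**
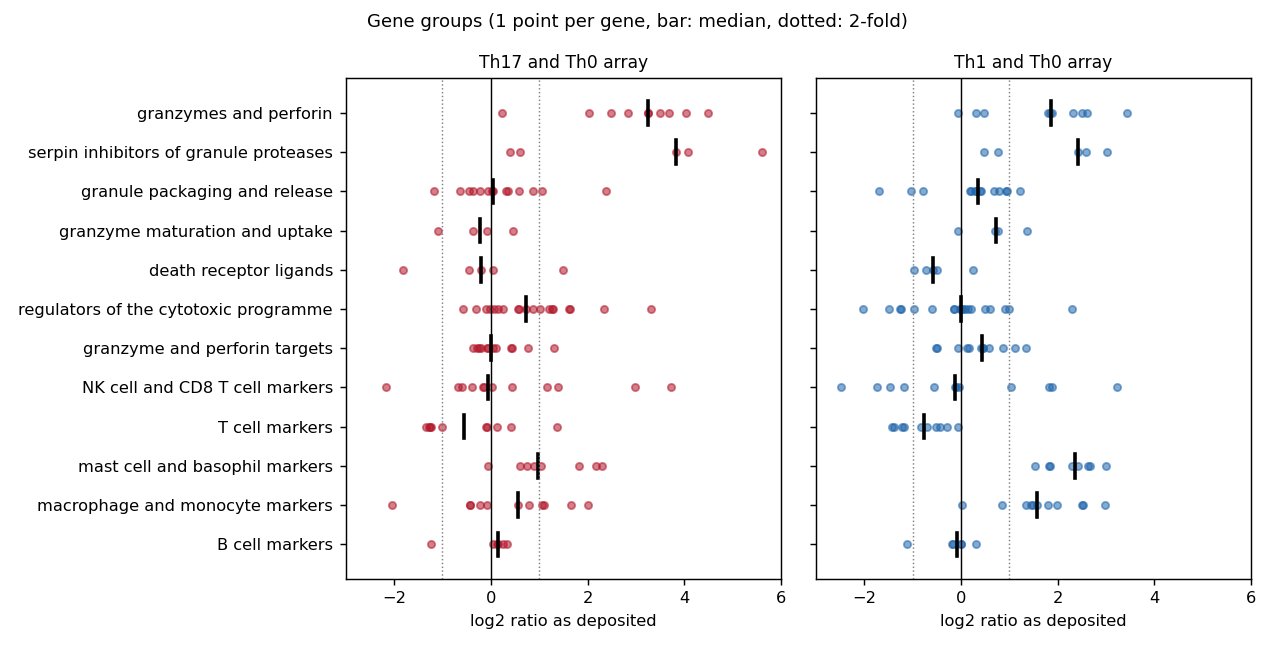
Log2 ratio as deposited of each gene (points, mean over its probes) by gene group, with the Th17 and Th0 array on the left and the Th1 and Th0 array on the right, and black bars at the group medians. Medians of granzymes and perforin are 3.24 on the left and 1.85 on the right, and those of the serpins 3.83 and 2.42. Mast cell and basophil markers have medians of 0.97 and 2.37, and macrophage and monocyte markers 0.56 and 1.57. In the right panel 8 of 8 and 9 of 11 of these markers are at least 2-fold positive, where 3.27% of all genes are.

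Set against each other through the Th0 channel, the Th17 and Th1 arrays differed at least 2-fold for 7 of 10 member genes. The subtraction assumes 1 common Th0 RNA on both arrays, about which the labels are silent. Of the 11 member probes, 8 differed at least 2-fold on the positive side and 0 on the negative side, where 4.63% of all probes with 1 gene lay on the positive side and 3.76% on the negative side. The median of the member probes was 1.52 (2.86-fold), beside 0.03 over all probes with 1 gene. Gzmb led at 2.36, followed by Gzmk at 1.89, Gzma at 1.72, Gzmd at 1.71, Gzmg at 1.52 and Gzmc at 1.38. The Gzme probes lay at 1.15 and 1.59. Gzmf at 0.66, Gzmm at 0.30 and Prf1 at −0.19 did not reach 2-fold. With each array centred on its most repeated value, Gzmc at 0.95 and the first Gzme probe at 0.73 no longer reached 2-fold in the difference. Then 6 of 11 probes did, where 12.3% of all probes with 1 gene did on either side. The neighbours from Gzmb to Gzmc in this order lay within the spread between probes of a gene from one to the next. The difference for Il17a was −5.67 and for Ccl20 −5.82, opposite to the granzymes, while Ifng at 1.19 and Tbx21 at 2.12 lay on their side. If the ratios run as titled, a positive difference is an excess in Th17 over Th1 cells, and if they run the other way it is a deficit.

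The genes with the most similar pair of values, by Euclidean distance over the 2 arrays, were named for Gzmb and for Prf1. The 6 nearest to Gzmb were Ulbp1, Otos, Slamf7, Nkg7, Oit3 and Igsf5, at distances of 0.40 to 0.53. Slamf7, a receptor gene of activated lymphocytes, lay at 2.84 on the Th17 and Th0 array and 0.93 on the Th1 and Th0 array. The 6 nearest to Prf1 were Slpi, Klrb1c, Tmem119, Cd55, Ctsg and Btnl9, at 0.07 to 0.69. Slpi, which encodes an inhibitor of granule proteases, lay at 3.22 and 3.37, and Klrb1c, the gene of the NK1.1 receptor, at 3.72 and 3.22. With 2 arrays such a likeness is a description of 2 values per gene.

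Markers of other cell types were read on the same arrays, where 2.9% of all genes were at least 2-fold positive and 5.52% negative on the Th17 and Th0 array and 3.27% positive and 6.92% negative on the Th1 and Th0 array. In bulk RNA a smaller share of a cell type and less RNA per cell cannot be told apart. Of 8 mast cell and basophil markers, 4 were at least 2-fold positive and 0 negative on the Th17 and Th0 array, and 8 of 8 were positive on the Th1 and Th0 array, with medians of 0.97 and 2.37. Their values ran from −0.05 to 2.31 on the first and from 1.52 to 3.0 on the second. Kit, the stem cell factor receptor gene of mast cells, lay at 2.31 and 2.43, and Fcer1a, a chain of the IgE receptor, at 0.61 and 2.67. Hdc at 2.18 and 1.85 and Cd200r3 at 1.83 and 1.52 were the 2 of 8 that lay further out on the Th17 and Th0 array. Of 11 macrophage and monocyte markers, 4 were positive and 1 negative on the Th17 and Th0 array and 9 positive and 0 negative on the Th1 and Th0 array, with medians of 0.56 and 1.57. Their values ran from −2.04 to 2.01 on the first, where Cd14 was lowest and 6 of 11 lay above 0, and from 0.03 to 2.98 on the second, where Fcer1g was highest. The part of these cell types in the granzyme and perforin values was not tested.

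NK cell and CD8 T cell markers lay on both sides. Of 12 measured, 4 were at least 2-fold positive and 1 negative on the Th17 and Th0 array, and 4 positive and 4 negative on the Th1 and Th0 array, with medians of −0.05 and −0.12. The shares over all genes were again 2.9% positive and 5.52% negative on the first and 3.27% and 6.92% on the second. Klrb1c and Klrg1, a receptor gene of terminal effector cells, lay at 3.72 and 2.99 on the Th17 and Th0 array and at 3.22 and 1.82 on the Th1 and Th0 array. Cd8a at 0.03 and Cd8b1 at −0.16 on the Th17 and Th0 array lay near 0, and Ncr1, which defines NK cells, lay at −0.68 there and −0.10 on the Th1 and Th0 array. Klrc1 lay at −2.17 and −2.49. Their part in the granzyme values was not tested. T cell markers had a median of −0.54 on the Th17 and Th0 array and −0.76 on the Th1 and Th0 array, with 5 and 4 of 10 at least 2-fold negative and 1 and 0 positive. Cd4 lay at −1.27 and −1.17, Cd3d at −1.0 and −1.43 and Cd5 at −1.34 and −0.52, while Trat1 was the positive one on the Th17 and Th0 array at 1.38, and Cd3e and Cd3g lay at 0.14 and 0.43 there. B cell markers had medians of 0.14 and −0.08, with 0 of 6 at least 2-fold positive and 1 negative on each array, which was Cr2 at −1.25 and −1.12.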

How the data were processed

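Total RNA was column-purified, and 500 ng was amplified with amino allyl labelling, per the labels' protocols. The authors deposited 1 number per probe and array, read here as the log2 ratio between channels after their own processing, since no header states the unit: the most repeated value was −0.4263 on the Th17 and Th0 array (162 probes) and −0.8485 on the Th1 and Th0 array (110 probes), and others lay away from it by log2 of small whole-number ratios. Scale, centring, direction, scanner software and normalization are not given in the sources used here. Equal signals in both channels may hold the most repeated value, which was not tested.

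Probes were named from the platform annotation, which can be old, through gene numbers in RefSeq: 26926 probes had 1 gene, 203 several and 9418 none in the table used. Of the 26926, 26774 matched, all 11 member probes included. Members were described probe by probe, and lists by the mean over a gene's probes (17501 genes). A probe or gene was counted when its absolute log2 ratio was at least 1 (2-fold). No p-value was computed. A weaker channel of at most 5 signal units was searched for as a whole-number ratio within 0.0001 on the log2 scale, up to a ratio of 60, and tested on simulated data. Promoters were aligned globally with Biopython 1.88 and identity was taken over alignment columns. Other steps used Python 3.11.15 with pandas 2.3.3 and NumPy 2.4.6. Every member probe is named, of the lists a selection of the genes with the largest absolute values, and the 6 genes nearest to Gzmb and to Prf1. The members and lists were chosen with earlier results of these data known, and neighbours on the chromosome, Srgn, Ncr1, Cd8a and Cd8b1 were named after their values were seen. Alternatives were other centrings, thresholds of 1.5-fold and 3-fold, means per gene, and leaving out weak channels or granzymes C to G.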

Additional observations from a re-analysis of the deposited data

Results flagged for a closer look

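Among members and named list genes, 3 genes were at least 2-fold apart on opposite sides of the 2 arrays, and none of these was a granzyme or perforin. The Th17 array minus Th1 array difference was 2.77 for Gata3, the master regulator of Th2 cells (1.28 on the Th17 and Th0 array and −1.49 on the Th1 and Th0 array). It was 2.60 for Trat1, a T cell receptor adaptor gene (1.38 and −1.22), and −2.47 for Ctsh (−1.09 and 1.37). With 1 array on each side these differences were not tested.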

How the results depend on the processing

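No paired analysis was possible because each comparison has 1 array. Each array was centred on its probe median, on 14 control genes or on its most repeated value. These settings, the mean per gene and a 1.5-fold threshold kept all 3 counts of members within 1.5 times and every median on the positive side. Centring on the most repeated value gave 10 of 11 probes on the Th1 and Th0 array, where 33.2% of all probes with 1 gene then passed. It gave 6 of 11 in the difference, where 12.3% passed. No member ratio was matched by a weak channel, so leaving out weak channels removed no member probe and could change nothing. Leaving out granzymes C to G left 4 of 5 probes past 2-fold on the Th17 array, 2 of 5 on the Th1 array and 3 of 5 in the difference. Over all probes with 1 gene, 8.66%, 10.5% and 8.39% passed on either side. On the Th1 array Gzma, Gzmb and Gzmm did not pass, and the median became 0.47. The median and most of the count on that array therefore rest on the near copies. A 3-fold threshold left 5 of 11 probes in the difference, where 3.21% of all probes with 1 gene passed. Turning the sign of both arrays turns every value and changes no count of members past 2-fold. What an array's signal over background limits could not be read from ratios.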
